A study of Mus musculus with 47 samples.

Results

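The results concern the second pharyngeal arch (PA2) of mouse embryos labelled as a temporal mutant of the homeobox gene Hoxa2. The members are the 3 libraries labelled Hoxa2TempMut and the 3 labelled Control, which make 6 of the 47 libraries of the series, and they were picked by their labels alone. All 6 hold RNA of sorted cranial neural crest cells from PA2 at E11.5, where E stands for the embryonic day. The design text of the series calls the mutant a temporal knockout of Hoxa2. No source used here gives the alleles, a Cre driver, an inducing agent or the time of deletion, nor the genotype or treatment of the Control embryos, so what both groups share is not known here. How late any loss occurred could not be checked. The other libraries used are 3 of wild-type PA2 and 3 of wild-type Md, the mandibular part of the first arch, all at E11.5. A further 6 are of Md at E10.5, where 3 were wild type and 3 were labelled HoxA2OE, the overexpression of Hoxa2.

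Cranial neural crest cells migrate from the neural folds into the arches and build most of the facial skeleton. Hoxa2 is the Hox gene that separates the second arch, which forms hyoid elements, the stapes and part of the outer ear, from the first arch, which forms the jaws and expresses no Hox gene. In mice that lack Hoxa2 from the start, the second arch forms mirror copies of first-arch elements. Hox proteins bind DNA together with cofactors of the Pbx and Meis families.

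The 6 libraries held between 32.3 and 36.8 M counts (M for 1e6), and the labels number the replicates but do not tie them to embryos or litters. The p-values therefore measure only the spread between these samples. Levels are counts per 1e6 counts of the scaled library total (CPM). Mitochondrial genes took 19.65 to 20.05% of counts in Control and 19.82 to 23.89% in Hoxa2TempMut. One library of each group held RNA of 1 sex only. In Control replicate 3 Xist, the RNA that silences an X chromosome in females, was at 4.95 CPM, against 1495 and 3006 CPM in the other Control libraries. In Hoxa2TempMut replicate 1 the summed level of 4 Y-linked genes was 0.983 CPM, against 111 and 292 CPM in the other mutant libraries. The other 4 libraries held RNA of both sexes. Against the labelled cell type, 14 mesenchymal crest genes such as Prrx1, Pdgfra and Twist1 were tested, and the list had a summed level of 4589 to 5325 CPM in Control and 4534 to 5159 CPM in Hoxa2TempMut.

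Hoxa2 (ENSMUSG00000014704, chromosome 6, 52162351 to 52165413 on GRCm38, minus strand) was lower in the mutant but far from absent. Its level was 281, 283 and 282 CPM in the Control libraries and 203, 195 and 182 CPM in the Hoxa2TempMut libraries. The groups did not overlap, and the mutant kept 68.5% of the Control level. The log2 fold change was -0.55 ± 0.05 (SE, adjusted p = 7.90e-05, edgeR's quasi-likelihood test with Benjamini-Hochberg adjustment, as for all adjusted p-values here). In wild-type PA2 Hoxa2 lay at 206, 209.9 and 192 CPM, which overlapped the mutant (log2 fold change of the mutant over wild type -0.06 ± 0.06, adjusted p = 0.408), and in wild-type Md it lay at 1.01, 1.36 and 2.59 CPM. Counts over the whole gene would not register a deletion that leaves most of the transcript in place, and whether this applies here was not tested. The reads are unstranded, and the transcript Gm20653, which overlaps Hoxa2, was lower as well, at 81.2 CPM in Control and 51.5 CPM in the mutant. When all 47 libraries were fitted in 1 model, with the spread shared over every group, the fold change of Hoxa2 was -0.54 and its adjusted p was 0.503.

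Of 18019 genes tested, 247 differed between Hoxa2TempMut and Control (1.37%), 103 higher (0.572%) and 144 lower (0.799%). The median log2 fold change was 0.49 among the higher genes, up to 2.28, and -0.69 among the lower genes, down to -3.21. Changes past 1 on the log2 scale, a doubling or more, numbered 22 upward and 39 downward. All 247 had groups that did not overlap, as did 2945 of all genes tested (16.3%). Without the libraries of Control replicate 3 and Hoxa2TempMut replicate 1, a choice made after seeing the data, 309 genes were called, 200 higher and 109 lower, so the larger number of falls did not hold.

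**Figure D1:**
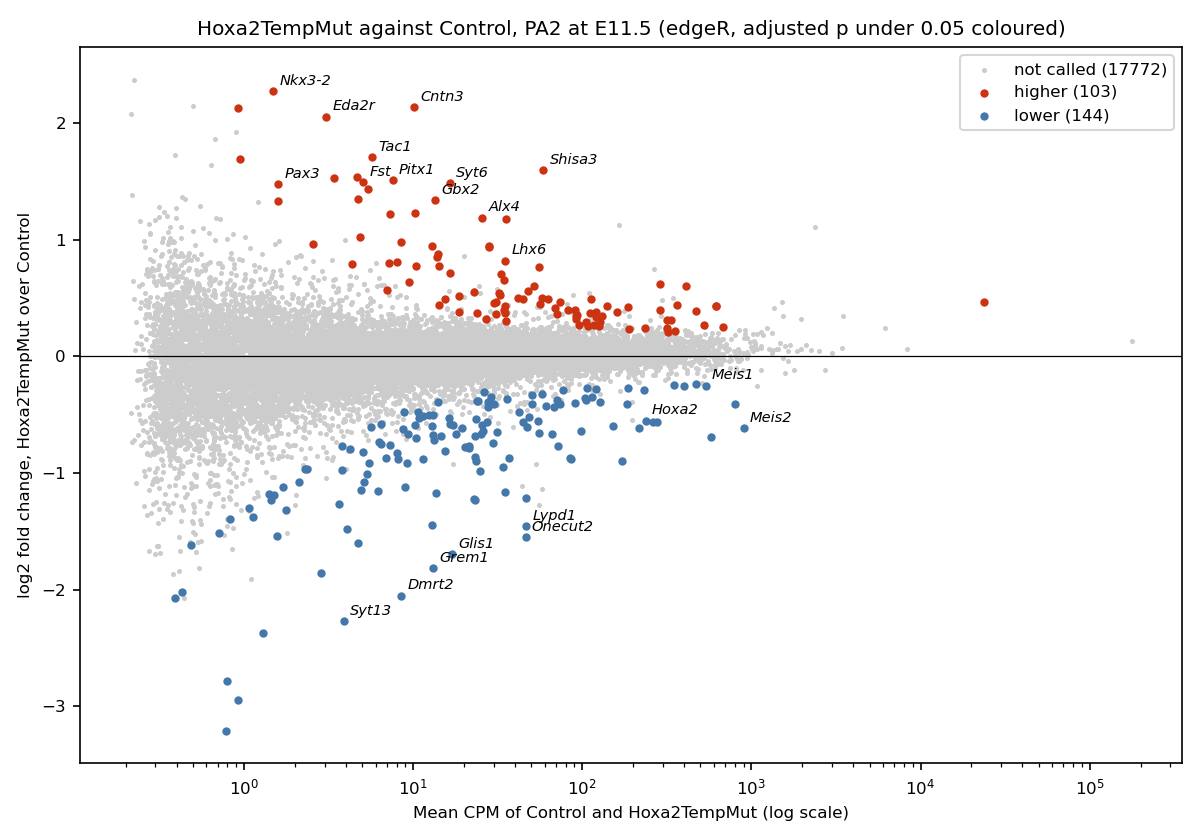
Mean level (CPM of the scaled library total, log axis) against the log2 fold change of Hoxa2TempMut over Control for the 18019 genes tested. The 103 genes called higher are red and the 144 called lower are blue. Some of the genes that the text describes are labelled, and Nkx3-2, the largest rise at 2.28, lies at low level.

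Pitx1 and Alx4 rose and Meis2 and Grem1 fell, the 4 genes chosen as markers of this comparison with earlier results known. Pitx1, a homeobox gene of the mandible and hindlimb, was at 4.33, 3.39 and 4.08 CPM in Control and 10.9, 9.37 and 13.5 CPM in the mutant, with a log2 fold change of 1.51 ± 0.15 (adjusted p = 0.000129). Alx4, a homeobox gene of the frontonasal and first-arch mesenchyme, was at 16.1, 12.5 and 18.1 CPM in Control and 36.3, 37.5 and 33.1 CPM in the mutant (1.19 ± 0.11, adjusted p = 7.90e-05). For both, every mutant library lay above every Control library, and both were under the mean levels in wild-type Md, 50.1 CPM for Pitx1 and 119 CPM for Alx4. Meis2, a cofactor of Hox proteins, was at 1018, 1109 and 1147 CPM in Control and 708, 737 and 696 CPM in the mutant (-0.62 ± 0.05, adjusted p = 5.99e-05). Grem1, a secreted antagonist of BMP ligands, was at 13.8, 22.4 and 24.7 CPM in Control and 5.03, 5.45 and 6.90 CPM in the mutant (-1.81 ± 0.19, adjusted p = 0.000199). Both were lower in all 3 mutant libraries than in any Control library.

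**Figure D2:**
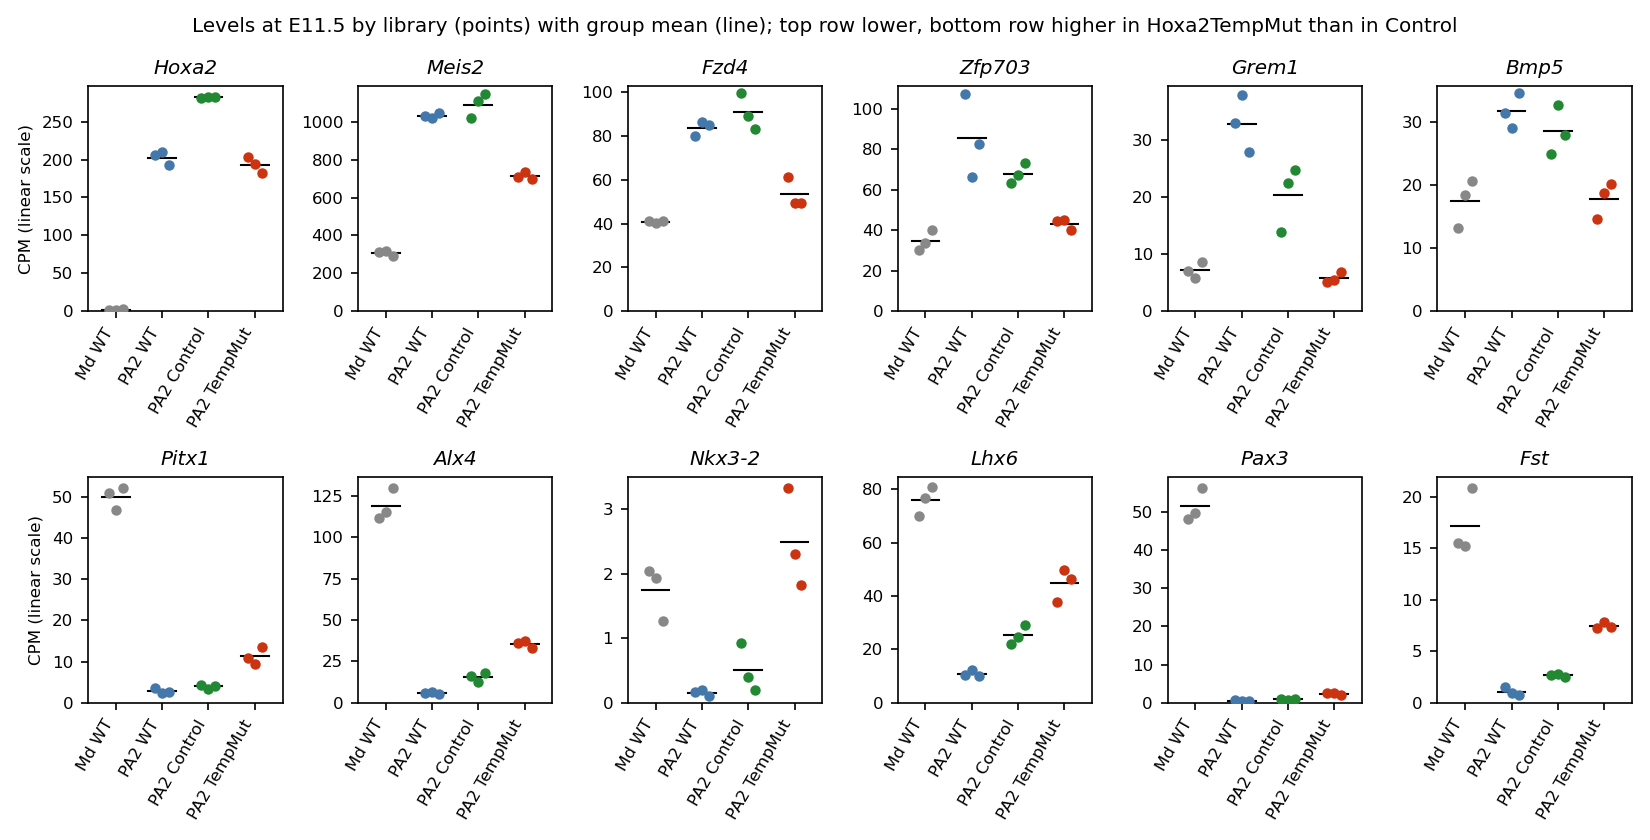
Level (CPM, linear axis from 0) of 12 genes in each library of wild-type Md, wild-type PA2, Control and Hoxa2TempMut at E11.5, with group means as lines. In the top row each gene is lower in the mutant than in Control, and in the bottom row each is higher, with no overlap between these groups.

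The 12 largest rises ran from 1.23 to 2.14 on the log2 scale, among called genes with at least 5 CPM in the higher group and no overlap between groups. Of these 12, 8 had a Control mean under 5 CPM and so met the minimum through the mutant alone. Cntn3, an adhesion molecule of the immunoglobulin family, rose from 3.65, 3.67 and 3.91 CPM to 15.97, 15.8 and 17.9 CPM, the largest of them (2.14 ± 0.10, adjusted p = 6.59e-07). Shisa3, an inhibitor of Wnt and FGF receptor maturation, rose from 31.7, 30.04 and 26.1 CPM to 78.8, 92.6 and 94.8 CPM (1.59 ± 0.09, adjusted p = 1.93e-06), although it overlaps Atp8a1, which was at 24.3 and 30.8 CPM. The other 10 of the 12 largest rises belonged to Tac1, which encodes the substance P precursor, Gpr50, Lgi1, Pitx1, Fst, Syt6, Rgs4, Aqp4, Gbx2 and Cyp2s1, and their fold changes lay between 1.23 for Cyp2s1 and 1.71 for Tac1. Syt6, a synaptotagmin of vesicle release, was at 8.37, 7.64 and 9.84 CPM in Control and 18.95, 28.7 and 25.1 CPM in the mutant. Gbx2, a homeobox gene of the early hindbrain, went from 8.58, 6.21 and 8.05 CPM to 19.1, 21.2 and 17.95 CPM. Fst, which encodes follistatin, a binder of activin and BMP ligands, went from 2.67, 2.80 and 2.46 CPM to 7.23, 7.86 and 7.33 CPM. The call of Lgi1 was lost without Hoxa2TempMut replicate 2 (adjusted p = 0.0590), and that of Rgs4 in the fit of all 47 libraries.

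The 12 largest falls, chosen in the same way, ran from -2.27 to -1.22. Dmrt2, a DM-domain transcription factor, fell from 10.9, 14.8 and 15.4 CPM to 3.70, 2.92 and 3.29 CPM (-2.05 ± 0.15, adjusted p = 1.04e-05). Onecut2, a homeobox factor of liver and neurons, fell from 53.2, 69.7 and 83.8 CPM to 24.3, 25.4 and 21.2 CPM (-1.55 ± 0.13, adjusted p = 5.25e-05). Glis1, a zinc finger factor, went from 22.9, 25.3 and 29.4 CPM to 8.47, 8.60 and 6.92 CPM. Lypd1 was at 77.98, 66.8 and 61.1 CPM in Control and 24.3, 25.1 and 25.9 CPM in the mutant, and Gpr39, whose span overlaps that of Lypd1, fell by a similar factor (log2 fold changes -1.46 and -1.45). Without strand information the reads of these overlapping genes cannot be assigned with certainty. The remaining largest falls were those of Syt13 (-2.27), Grem1, Palmd, Nrcam, Myh3, Hs3st3a1 and Fibin. Hs3st3a1 and its paralog Hs3st3b1, which modify heparan sulphate chains, had fold changes of -1.23 and -1.22, and Hs3st3b1 was named after its values were seen. Hs3st3b1 was at 59.9, 70.7 and 65.1 CPM in Control and 29.9, 26.6 and 27.9 CPM in the mutant. Myh3, an embryonic muscle myosin, was called in 7 of the 14 alternatives tried, and Fibin in 13.

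Lists of candidate Hoxa2-activated and Hoxa2-repressed genes, chosen with results of these data known and so no independent evidence of direction, held calls on opposite sides. These and the following list counts read against 0.572% of all genes called higher and 0.799% called lower. Of 8 candidate activated genes tested, 5 fell and none rose, and the median log2 fold change was -0.43 against -0.01 over all genes. Fzd4, a Wnt receptor, was at 99.9, 89.3 and 83.2 CPM in Control and 61.3, 49.2 and 49.4 CPM in the mutant (-0.77 ± 0.09, adjusted p = 0.000569). Zfp703, a zinc finger repressor, was at 63.2, 67.01 and 73.4 CPM in Control and 44.7, 45.2 and 39.8 CPM in the mutant (-0.66 ± 0.08, adjusted p = 0.000424). Its relative Zfp503 (-0.48 ± 0.08) and Meis1 (-0.25 ± 0.05, adjusted p = 0.0259) fell too, with Meis2 as the fifth. Meis1 kept its call in 7 of 14 alternatives, Zfp503 in 12 and Zfp703 in 13. Wnt5a, a ligand of the noncanonical Wnt pathway, was at 179.7, 229.5 and 259 CPM in Control and 160.5, 179 and 173 CPM in the mutant, groups that did not overlap but did not pass the test (adjusted p = 0.0962). Meox1 was at 12.1 and 11.3 CPM.

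Of 9 candidate repressed genes tested, 4 rose and none fell, and the median was 0.82. Nkx3-2, a homeobox gene of the middle ear and jaw joint, was at 0.920, 0.404 and 0.203 CPM in Control and 3.33, 2.31 and 1.82 CPM in the mutant (2.28 ± 0.39, adjusted p = 0.0105). Lhx6, a LIM homeobox gene known from the oral face of the jaw arch, was at 21.97, 24.6 and 28.9 CPM in Control and 37.6, 49.8 and 46.5 CPM in the mutant (0.82 ± 0.11, adjusted p = 0.00181). The call of Nkx3-2 was lost without Control replicate 2 (adjusted p = 0.0854). Six2, a homeobox gene of the nasal and first-arch mesenchyme, was at 9.14, 13.4 and 19.95 CPM in Control and 23.6, 26.7 and 27.03 CPM in the mutant, with an adjusted p of 0.0501. Lhx8, the paralog of Lhx6, was at mean levels of 46.9 CPM in Control and 35.1 CPM in the mutant (adjusted p = 0.424), and Barx1 was at 42.7 and 44.5 CPM. Without both single-sex libraries, 6 candidate repressed genes rose and 4 candidate activated genes fell, and in the fit of all 47 libraries 5 rose and 2 fell.

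Hox genes and their cofactors held 4 falls and 1 rise. Of 8 anterior Hox genes tested, Hoxa2 and Hoxd3 fell. Hoxd3 was low, at 1.84, 1.65 and 3.53 CPM in Control and 0.839, 0.898 and 0.692 CPM in the mutant, and it was called in 8 of 14 alternatives. Hoxa3, the neighbour of Hoxa2 in the cluster, was at 56.5 and 58.4 CPM (log2 fold change 0.04). The median of the 8 anterior Hox genes was -0.53, against -0.01 over all genes, and only 1 of the 8 had a fold change above 0. Among 9 cofactors, Meis2 and Meis1 fell, and Pknox2, another member of the TALE homeobox class, rose from 38.8, 37.6 and 39.03 CPM to 52.4, 63.96 and 54.8 CPM (0.56 ± 0.08, adjusted p = 0.00186).

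Of 11 proximal and maxillary genes, 3 rose, Dlx2, Nr2f2 and Lhx6, and none fell. Dlx2, a homeobox gene of the proximal arch, was at 33.5, 26.9 and 28.2 CPM in Control and 40.2, 42.3 and 37.5 CPM in the mutant (0.43 ± 0.09, adjusted p = 0.0277), and it kept its call in 8 of 14 alternatives. Msx1, a homeobox gene of the distal arches, fell from 31.7, 34.6 and 31.3 CPM to 23.5, 19.98 and 22.5 CPM. Of 9 frontonasal genes, Alx4 and Pax3 rose, while the median of the list was -0.34. Pax3, a paired-box factor, was at 0.861, 0.808 and 0.840 CPM in Control and 2.55, 2.57 and 1.93 CPM in the mutant, against 51.5 CPM in wild-type Md. Of 15 genes for the outer ear and hyoid region, Nkx3-2 and the T-box gene Tbx22 (0.80 ± 0.13) rose, and Pax9 (-0.64 ± 0.08) and Sall1 (-1.08 ± 0.15), a zinc finger gene of ear and kidney development, fell. Sall1 was at 7.12, 7.08 and 6.80 CPM in Control and 4.14, 2.73 and 3.09 CPM in the mutant. Pax9 was at 33.96, 30.5 and 30.2 CPM in Control and 19.3, 19.1 and 22.5 CPM in the mutant.

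**Figure D3:**
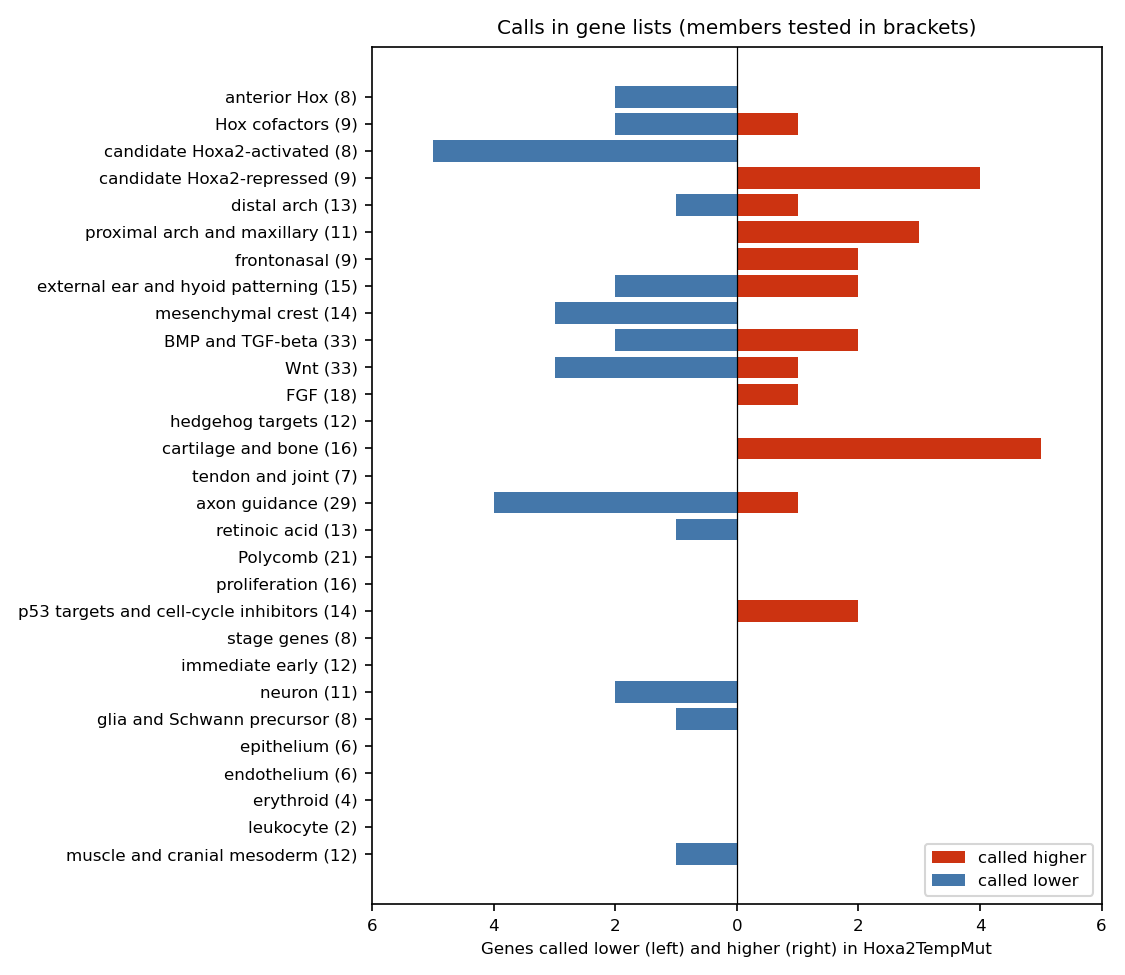
Number of genes called lower (blue, left) and higher (red, right) in Hoxa2TempMut, by gene list, with the members tested in brackets. The candidate repressed and the cartilage and bone lists hold only rises, and the candidate activated and mesenchymal crest lists only falls, although without both single-sex libraries the crest list held 3 rises and 2 falls.

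Of 16 cartilage and bone genes tested, 5 rose (0.572% of all genes) and none fell (0.799%), and the median was 0.26. They were the cartilage regulators Sox9, Sox5 and Sox6 and the matrix genes Col2a1 and Col9a1, with fold changes between 0.25 and 0.47. Sox5 was at 61, 57.6 and 57.6 CPM in Control and 81.8, 79.2 and 75.1 CPM in the mutant (0.42 ± 0.06, adjusted p = 0.00271). Every mutant library exceeded every Control library. Sox5 kept its call when any single library was left out, while Col9a1 kept it in 1 of those 6 fits, Sox9 in 3 and Sox6 in 4. The list held 2 calls without any 1 of the mutant libraries, without Control replicate 2 or without both single-sex libraries, and 3 without Control replicate 3. Runx2, the master regulator of bone, was at 49.6, 74.5 and 91.98 CPM in Control and 87.2, 108 and 117 CPM in the mutant, with overlap (adjusted p = 0.204).

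Of 33 genes of the BMP and TGF-beta pathways, Fst and the ligand Gdf6 rose, and Grem1 and the ligand Bmp5 fell. Bmp5 was at 24.9, 32.6 and 27.97 CPM in Control and 14.6, 18.7 and 20.1 CPM in the mutant. Of 33 Wnt genes, the receptor Fzd1 rose (0.39 ± 0.05), and Fzd4, the Wnt antagonist Frzb (-0.38) and the Wnt agonist Rspo1 (-0.67) fell. When each library was left out in turn, Gdf6, Bmp5 and Rspo1 kept their calls in 4 of 6 fits and Frzb in 3. The calls of Gdf6 and Bmp5 were lost without Hoxa2TempMut replicate 2 or Control replicate 2, those of Rspo1 without Hoxa2TempMut replicate 1 or 3, and those of Frzb without Hoxa2TempMut replicate 2 or 3 or Control replicate 2. Fzd1 was at 246, 249.5 and 252 CPM in Control and 318, 340.3 and 327.5 CPM in the mutant. Of 18 FGF genes, the target Etv5 rose (0.49 ± 0.08). Of 12 hedgehog targets none was called by edgeR's quasi-likelihood test, 5 had an unadjusted p under 0.05, and DESeq2 called 2 higher. Without the filter on low counts 3 rose, and without Hoxa2TempMut replicate 1 the number was 2. Gli1, the common readout of hedgehog input, was at 21.05, 18.2 and 18.96 CPM in Control and 23.05, 24.5 and 25.6 CPM in the mutant (adjusted p = 0.0751). Of 13 retinoic acid genes, the degrading enzyme Cyp26b1 was the 1 called, at a log2 fold change of -0.40 ± 0.06.

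Of 14 mesenchymal crest genes, Pdgfra, Twist2 and Msx1 fell, and the median was 0.01. Twist2 kept its call in 3 of 6 fits with a library left out (lost without Hoxa2TempMut replicate 2 or 3 or Control replicate 3), and without both single-sex libraries the list held 3 rises and 2 falls. Pdgfra, the receptor for platelet-derived growth factor A that marks crest mesenchyme, was at 915, 929 and 893 CPM in Control and 696, 654 and 723 CPM in the mutant (-0.41 ± 0.05, adjusted p = 0.00101). Of 29 axon guidance genes, Sema3a rose (0.31), and Dcc, Sema3d, Robo2 and Ephb2 fell (-0.87 to -0.37). With a library left out, Sema3d and Robo2 kept their calls in 5 of 6 fits and Dcc and Ephb2 in 2, and the list held no rise and 1 fall without Control replicate 2. None of 21 Polycomb genes, 16 proliferation genes, 8 stage genes, 12 immediate early genes or 7 tendon genes was called in the main edgeR fit or by DESeq2. In the other edgeR fits the stage, immediate early and tendon lists held at most 1 rise and 1 fall each. The Polycomb and proliferation lists held no call there. At an unadjusted p under 0.05 there were 2 tendon genes and 1 gene in each other list, and with 1.37% of all genes called, no call in lists of this size is near the background. Of 14 p53 targets and cell-cycle inhibitors, 2 rose. Eda2r, a death receptor induced by p53, rose from 1.66, 0.839 and 1.04 CPM to 5.00, 5.07 and 4.79 CPM (2.06 ± 0.21, adjusted p = 0.000192). Ccng1, cyclin G1, rose from 44.4, 39.1 and 39.2 CPM to 61.2, 68.4 and 57.99 CPM.

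Of 11 neuronal genes 2 fell, the neurofilament genes Nefl (-1.16 ± 0.08) and Nefm (-0.86 ± 0.08), whose annotated spans overlap, so that their reads are uncertain. The summed level of the list was 112 to 137 CPM in Control and 69.1 to 73.8 CPM in Hoxa2TempMut. Of 12 muscle and cranial mesoderm genes, the cardiac actin gene Actc1 fell (-0.98 ± 0.18, adjusted p = 0.0157), and the summed level was 34.8 to 58.3 CPM in Control, 25.2 to 31.4 CPM in the mutant and 7.35 to 16.6 CPM in wild-type PA2. The contractile genes Ttn, Neb and Acta2, named after their values were seen, also fell, like Myh3. Actc1 was called in 8 of 14 alternatives. Of 8 glial genes, Cdh19 fell. The epithelial, endothelial, erythroid and leukocyte lists held no call in the main edgeR fit or by DESeq2. In that edgeR fit 3 epithelial and 1 endothelial gene had an unadjusted p under 0.05. The epithelial list held 1 fall with no low-count filter or without Control replicate 1, and the erythroid list 1 fall with the replicate block. Epithelial genes summed to 9.94 to 13.1 CPM in Control and 7.43 to 9.24 CPM in the mutant, and the other 3 lists reached at most 33.7 CPM, with overlapping groups. The markers at 0 in all 6 libraries were Neurog1 of the neuronal list, Hba-a1 and Hba-a2 of the erythroid list, and C1qa and Tyrobp of the leukocyte list. In sorted bulk samples, fewer cells of a type and less RNA per cell cannot be told apart, and the part of muscle, neuron and epithelial RNA in the falls was not tested.

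**Figure D4:**
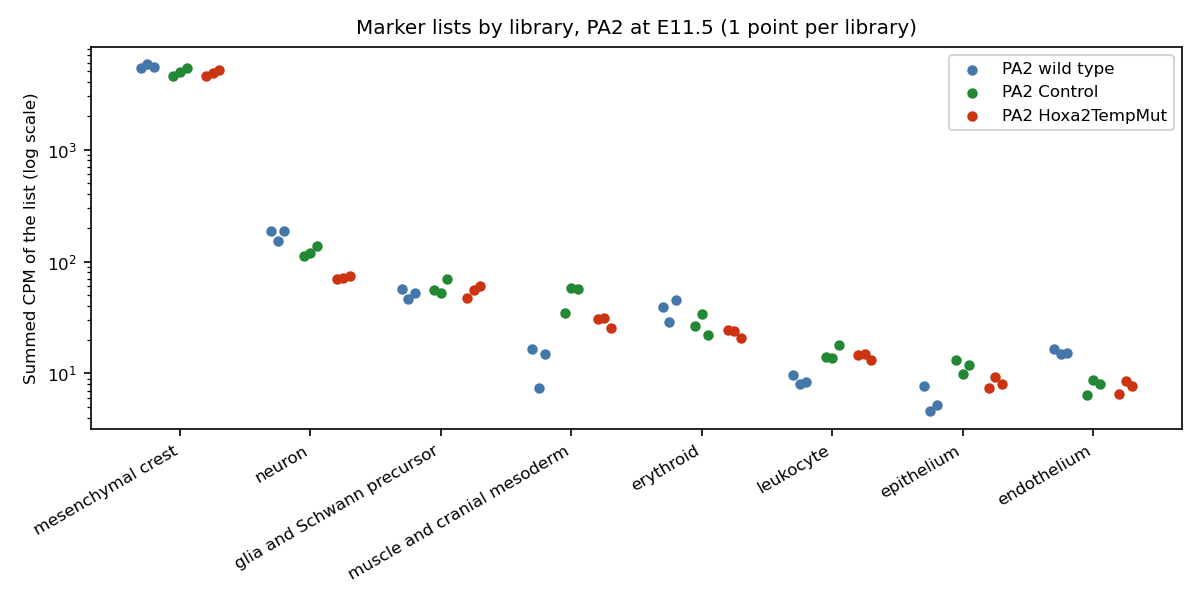
Summed level (CPM, log axis) of the crest list and of 7 lists for other cell types in each library of wild-type PA2, Control and Hoxa2TempMut. The neuron, muscle and epithelium sums of the 3 mutant libraries lie under those of the 3 Control libraries, and the crest sums of both groups overlap.

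The genes that changed could be placed on the axis from PA2 to Md with libraries the mutant comparison did not use. Between wild-type Md and PA2 at E11.5, 1945 of 17853 genes differed (10.9%), 836 higher (4.68%) and 1109 lower (6.21%) in Md. Of the 103 genes higher in Hoxa2TempMut, 60 were higher in Md (58.3%, against 4.59% of the 17398 genes tested in both) and 4 were lower. Of the 144 genes lower in Hoxa2TempMut, 143 were tested, of which 116 were lower in Md (81.1%, against 6.21%) and 4 were higher. Those sets made up 7.51% of the 799 genes higher in Md and 10.7% of the 1080 genes lower in Md that were tested in both comparisons. Pitx1, Alx4, Lhx6 and Fst were higher in Md, and Meis2, Grem1, Dmrt2, Onecut2 and Lypd1 were lower. Pax9 and Dlx2 ran the other way, since Pax9 was higher and Dlx2 lower in Md. The change in the mutant was the smaller in most cases. The median size was 0.80 in the mutant and 1.28 in Md for the genes higher in both, with 53 of 60 smaller in the mutant, and 0.72 and 1.46 for the genes lower in both, with 101 of 116 smaller.

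**Figure D5:**
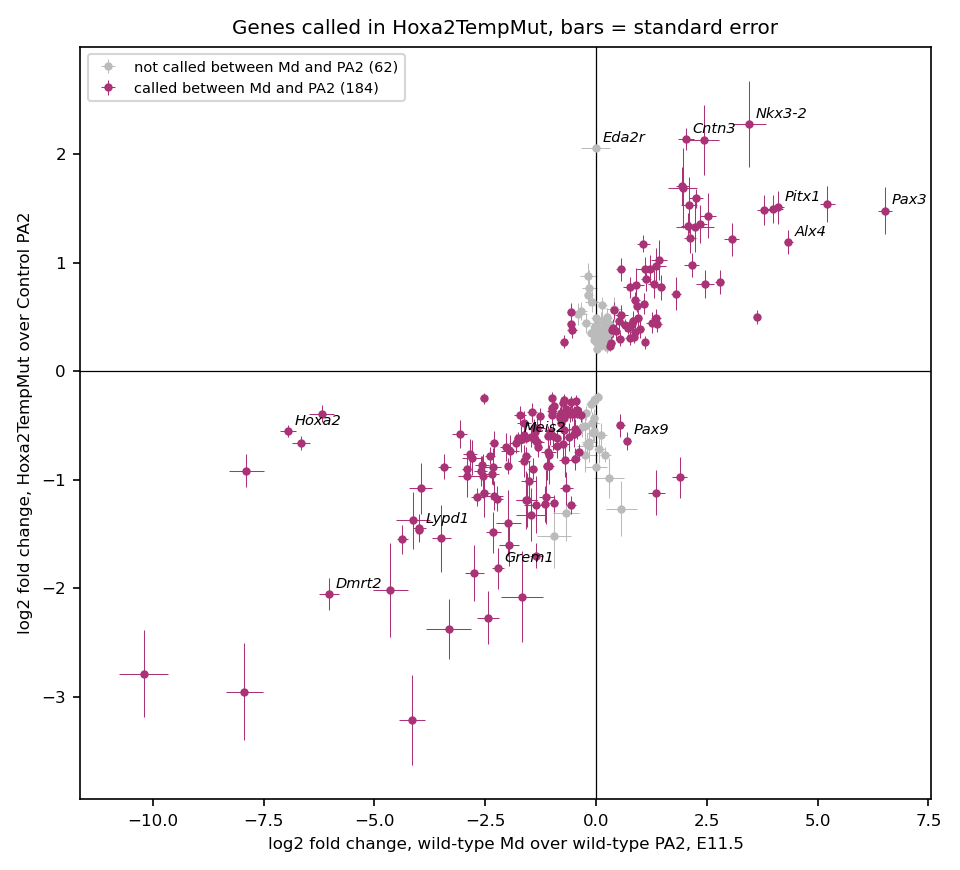
For the genes called in Hoxa2TempMut, log2 fold change of wild-type Md over wild-type PA2 at E11.5 (horizontal) against that of Hoxa2TempMut over Control (vertical), with standard errors. Genes called in both (purple) lie mostly in the lower left and upper right, and Eda2r, high in the mutant, lies at 0 on the horizontal axis.

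Genes that differed between HoxA2OE and wild-type Md, the converse experiment, were compared in the same way. No separate control is labelled for HoxA2OE, so what part of that difference comes from Hoxa2 was not tested. In Md at E10.5, overexpression of Hoxa2 took its level from 0.250, 0.208 and 0.225 CPM to 78.6, 92.6 and 102 CPM. Of 17113 genes tested, 6400 differed (37.4%), 3468 higher (20.3%) and 2932 lower (17.1%), and the count ran from 1380 to 9796 when 1 library was left out. Of the 102 genes higher in Hoxa2TempMut that were tested there, 32 were higher (31.4%) and 20 lower (19.6%) in HoxA2OE, against 20.6% and 16.9% of the 16716 genes tested in both. Of the 126 tested genes lower in Hoxa2TempMut, 55 were higher (43.7%) and 14 lower (11.1%). Of the 66 named genes 63 were tested there, of which 26, Hoxa2 itself included, were called in the direction opposite to the mutant, 10 in the same direction and 27 in neither. Among those on opposite sides, Pitx1 (-3.66 ± 0.54), Gbx2 (-2.59 ± 0.29), Alx4 (-1.41 ± 0.16) and Pax3 (-4.93 ± 0.41) were lower in HoxA2OE, and Lypd1 (2.06 ± 0.18), Fzd4 (1.74 ± 0.12), Dmrt2 (4.10 ± 0.56) and Meis2 (0.76 ± 0.10) were higher. Those on the same side were Gdf6 (1.14 ± 0.16), Ccng1 (1.21 ± 0.23), Dlx2 (0.90 ± 0.24), Col9a1 (0.88 ± 0.28), Eda2r (0.83 ± 0.24) and Fzd1 (0.45 ± 0.11), higher in both, and Glis1 (-1.72 ± 0.49), Nefm (-1.30 ± 0.23), Rspo1 (-1.28 ± 0.39) and Cyp26b1 (-0.63 ± 0.17), lower in both.

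Both groups differed widely from wild-type PA2. Control differed from wild type in 6313 of 18049 genes (35%), with 16% higher and 18.9% lower, and Hoxa2TempMut in 8004 of 18009 (44.4%), with 20.9% higher and 23.5% lower. Because the comparisons share libraries, the levels are given side by side. Alx4 was at 5.62, 6.32 and 5.43 CPM in wild-type PA2, Shisa3 at 8.65, 9.33 and 9.001 CPM, and Gbx2 at 2.80, 2.14 and 2.80 CPM, all under the Control libraries, which were under the mutant. Meis2 was at 1031, 1018 and 1049 CPM in wild type, overlapping Control, and Hoxa2 in Control lay above wild type by 0.47 ± 0.06 on the log2 scale. On the first principal component of the 9 PA2 libraries, which held 50.5% of the variance, wild type lay between -51.05 and -46.14, Control between 15.45 and 20.44, and Hoxa2TempMut between 27.57 and 36.09. How the wild-type and Control embryos differ in genotype or treatment is not stated in the labels.

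Stretches upstream of the RefSeq starts of the changed genes were read for the binding letters of Hox-Pbx complexes and of Meis proteins. The letters were TGATNNAT for Hox-Pbx and TGACAG for Meis, on both strands, in the 250 bases before each RefSeq start on GRCm38.p6, where 10410 of 17739 tested symbols had an entry. Hox-Pbx letters stood in 4.76% of all genes, 5.8% of 69 higher genes and 6.38% of 94 lower genes, and Meis letters in 16.5%, 20.3% and 21.3%, with 1.28, 1.48 and 1.33 starts per gene. Of 66 named genes 49 had an entry, and among those searched 3 held the Hox-Pbx letters and 9 the Meis letters. Onecut2, Aqp4 and Dcc were left out of the search of named genes, so any match there would be missed. The 3 Hox-Pbx matches are shown, with the Meis matches of Hoxa2 and Shisa3 and 1 of 2 for Lypd1 as examples. The Meis matches of Rgs4, Robo2, Nkx3-2, Sox6, Pax9 and Twist2 are not printed. Each is 30 bases, 5′ to 3′ on the gene's strand, with the match in capitals, and is a description of letters, not of binding. The printed stretches of Hoxa2 and Lypd1 lie inside the annotated spans of these genes, before a RefSeq start within the span.
Hoxa2 Hox-Pbx (chr6:52164924-52164953, minus): gacttttttggATCAATCAaacagacagtg
Hoxa2 Meis (chr6:52164858-52164887, minus): gaagcaatcatgTGACAGccaattcggtcc
Bmp5 Hox-Pbx (chr9:75775207-75775236, plus): gcgtacaccccATAGATCActgttgtctgt
Ccng1 Hox-Pbx (chr11:40755287-40755316, minus): tcctcagagaccATCCATCAaaagaaccac
Shisa3 Meis (chr5:67607636-67607665, plus): cccctggctatgTGACAGctaggtggcagg
Lypd1 Meis (chr1:125911452-125911481, minus): gagcggcgacgcTGACAGgtgagcgactcg
Bmp5 fell and Ccng1 rose in the mutant. The shares with Hox-Pbx letters, 5.8% of higher and 6.38% of lower genes, were near the 4.76% of all genes.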

How the data were processed

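Sorted cranial neural crest cells were profiled as unstranded, single-end total RNA libraries of 50 bases, per the labels. The authors deposited whole-number counts of reads for each gene, with the exonic length in bases as another column, per the file headers. Demultiplexing used bcl2fastq 2.17 and the build was GRCm38, per the submitters' processing notes. The aligner, the counter and the annotation release are not given here. Of 38215 genes, 4004 identifiers share a symbol, so genes were followed by identifier, and 22 repeated columns held identical values and were used 1 time each.

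The 6 libraries were fitted alone with edgeR 4.0.16 in R 4.3.3 (TMM scaling, filterByExpr with minimum count 10 and total 15, quasi-likelihood test, 4 residual degrees of freedom). Genes with a Benjamini-Hochberg adjusted p under 0.05 were called. Errors of fold changes are standard errors, taken as the fold change divided by the root of the F statistic. The other comparisons were each fitted on their own 6 libraries. CPM are per 1e6 of TMM-scaled totals over the 12 libraries of Md, PA2, Control and Hoxa2TempMut at E11.5, and over 6 for E10.5. Libraries at E11.5 held 27.8 to 36.8 M counts. Replicates differed by 7.01 to 21.6 times the sampling noise (chi-square per degree of freedom, pooled over genes of all levels). In that pool the spread between libraries exceeded the sampling noise. For genes with few counts, such as Nkx3-2 with 51 in the 3 Control libraries together, depth limits the precision too.

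Named genes are Hoxa2, the 4 markers, the 12 largest rises and 12 largest falls among called genes of at least 5 CPM with no overlap, and up to 4 called members of each list. Sema3a and Col2a1 complete a count and were named after their values were seen. The members and the lists were chosen with earlier results of these data known. Of 66 named genes, 16 overlap another tested gene, so their unstranded counts are uncertain. Replicate numbers were checked for pairing. Deviations of same-numbered Control and Hoxa2TempMut libraries correlated at 0.189, -0.0161 and 0.118, which does not settle pairing. They were not treated as pairs in the main fit. Alternatives were another scaling, DESeq2 1.42.0, no filter, all 47 libraries in 1 model, a replicate block, a robust spread, no mitochondrial genes and each library left out. The scripts were tested on simulated data. Some genes of the lists are not reported here.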

Additional observations from a re-analysis of the deposited data

How the results depend on the processing

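The 247 calls between Hoxa2TempMut and Control became 387 with DESeq2 and 525 with no filter on low counts. In the fit of all 47 libraries, whose common biological coefficient of variation was 0.129 against 0.0847, 128 genes were called. Leaving out each library gave 137 to 376. The counts were 137 without Hoxa2TempMut replicate 2, 153 without Hoxa2TempMut replicate 3, 137 without Control replicate 2 and 376 without Control replicate 1. With a replicate block 520 were called, the 247 among them. Replicates 1 and 3 but not 2 correlated best with their own number, so whether the replicates are paired could not be told. The share called higher was 41.7%, and 55.4% without Control replicate 3. All 247 genes kept their direction in each alternative, apart from 2 mitochondrial genes not tested when those were left out. Of 66 named genes, 35 stayed called in all 14 alternatives and 24 lost the call in the fit of all 47 libraries, Hoxa2 among them. For HoxA2OE the 6400 calls became 11277 in the fit of all 47 libraries, 4213 with the replicate block and 1380 to 9796 with a library left out (9796 without HoxA2OE replicate 1, and 1944, 1380 and 2662 without wild-type replicates 1, 2 and 3). The counts for Md against PA2 (1315 to 2435), Control against wild type (5021 to 5869) and Hoxa2TempMut against wild type (6673 to 7732) stayed within 1.5 times of the main value with a library left out. The cause of these differences was not tested.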

Other observations

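Below 5 CPM, several regulators and neuronal genes fell steeply, and they were singled out after their values were seen. Pax2, a paired-box factor of kidney and otic development, was at 2.64, 1.96 and 1.94 CPM in Control and 0.405, 0.545 and 0.317 CPM in Hoxa2TempMut (log2 fold change -2.37 ± 0.28, adjusted p = 0.000473). Gad2, a GABA-synthesising enzyme, was at 0.950, 2.64 and 1.33 CPM in Control and 0.174, 0.192 and 0.260 CPM in the mutant, and at 8.91, 6.48 and 8.83 CPM in wild-type PA2. Hoxc5 was at 0.891, 1.31 and 1.97 CPM in Control and 0.145, 0.225 and 0.231 CPM in the mutant. For all 3 the groups did not overlap, as for all 247 called genes and for 16.3% of all genes tested.

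Genes that changed sometimes lay side by side. Of the 247 called genes, 24 had as nearest non-overlapping tested neighbour a gene called in the same direction (9.72%), 18 of them lower. Over all genes tested, 0.572% were called higher and 0.799% lower. The nearest neighbour of 1 called gene was called the other way. Genes that were each other's nearest neighbour, such as Dscam and Pcp4, both count among the 24. In 15 of the 24 the gap was under 10 kb, where unstranded reads of neighbours may be mixed. Dscam and Pcp4, 66.3 kb apart, both fell (-1.37 and -3.21). Gpr39 and Nckap5, 39.8 kb apart, fell too (-1.45 and -0.66). Between them lies Lypd1, which also fell, overlaps Gpr39 and ends 0.519 kb from Nckap5, so reads may be mixed there as well.

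Abundant genes outside the lists also changed, and these too were named after their values were seen. Mecom, a zinc finger factor, was at 269.5, 267 and 252 CPM in Control and 168, 170.2 and 179 CPM in the mutant (-0.62 ± 0.05, adjusted p = 2.77e-05). Enpp2, the enzyme autotaxin, was at 111, 100.02 and 117 CPM in Control and 54.2, 62.2 and 63.4 CPM in the mutant, and Igfbp5, a binder of insulin-like growth factors, went from 711 to 441 CPM in the mean. Upward, the nuclear receptor gene Nr5a2 was at 21.7, 19.9 and 23.6 CPM in Control and 48.2, 47.8 and 51.7 CPM in the mutant (1.17 ± 0.08, adjusted p = 5.27e-06).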
